A study of Mus musculus with 44 samples.

Results

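The genes described here are 10 ligands, receptors and binding proteins of the TGF-beta and activin pathways, taken by gene symbol from a table of 55486 genes counted in sorted mammary fibroblasts. They are the TGF-beta ligands Tgfb1, Tgfb2 and Tgfb3, the receptors Tgfbr1, Tgfbr2 and Tgfbr3, the activin subunits Inhba and Inhbb, the activin binding protein Fst (follistatin) and the matrix protein Ltbp2. All 10 were found and all 10 passed the filter on low counts, as 10 of the 16601 genes tested. The fibroblasts came from En1-Cre;mTmG recipient mice, in which Cre driven by the Engrailed1 gene switches a ubiquitous membrane reporter from tdTomato to GFP, so that GFP marks cells of the En1 lineage. Donor mammary tissue was placed beside the 4th gland without clearing the recipient's own fat pad, so that recipient ducts remained in place. Control recipients (normal fibroblasts, NFs) carried donor tissue without WapCre. WB1P recipients carried tissue of WapCre;Brca1 F/F;Trp53 F/F mice, in which Wap-driven Cre deletes Brca1 and Trp53 in mammary epithelium. WB1P-Myc tissue carried in addition the Col1a1 invCAG-Myc-IRES-Luc allele, which adds Myc expression. Cancer-associated fibroblasts (CAFs) were those of tumor-bearing recipients. Cells negative for EpCAM, CD49f, CD31 and CD45 were divided by surface CD26 (the product of Dpp4) and by GFP into 4 populations, named En1+, CD26+, double+ and double- in the labels. There were 3 control, 5 WB1P and 5 WB1P-Myc mice with 44 libraries, each control label carries a pair of numbers and was counted as 1 mouse although it may stand for pooled animals, and 2 WB1P-Myc mice (23 and 69) are marked 8x8. The genes lie on GRCm38, with Tgfb1 (ENSMUSG00000002603) at chr7:25687002-25705077, Tgfb2 (ENSMUSG00000039239) at chr1:186622792-186705989 and Tgfb3 (ENSMUSG00000021253) at chr12:86056745-86079041. Tgfbr1 (ENSMUSG00000007613) lies at chr4:47353222-47414931, Tgfbr2 (ENSMUSG00000032440) at chr9:116084293-116175360 and Tgfbr3 (ENSMUSG00000029287) at chr5:107106570-107289629. Inhba (ENSMUSG00000041324) lies at chr13:16011851-16031621, Inhbb (ENSMUSG00000037035) at chr1:119415465-119422248, Fst (ENSMUSG00000021765) at chr13:114452290-114458951 and Ltbp2 (ENSMUSG00000002020) at chr12:84783212-84876532. All are protein-coding. At transplantation the recipients were near weaning age and the donors a few weeks old, and the ages at harvest are not given in the sources used here.

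TGF-beta and activin are secreted dimers that bind paired serine/threonine kinase receptors and act through SMAD2 and SMAD3. TGF-beta is stored in the matrix in a latent form, bound to its propeptide and to latent TGF-beta binding proteins, until integrins or proteases release it. In fibroblasts it is the classical inducer of the contractile, matrix-producing myofibroblast state, which in tumors is named myCAF, and activin A, the dimer of the Inhba product, acts on related receptors and is held back by follistatin.

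Promoter sequences are shown for the members whose levels rose most in CAFs (Inhba, Inhbb and Ltbp2) and for Tgfb2, whose change depended on CD26 class. They are the bases before the RefSeq start (GRCm38.p6), without any base that lies in the annotated gene, and 7 of 10 members had an entry. Capitals mark matches, on either strand, to CAGAC (the core of the SMAD site, which reads GTCTG on the other strand) or TATAAA (the TATA box).
Inhba, chr13:16011601-16011850, plus strand: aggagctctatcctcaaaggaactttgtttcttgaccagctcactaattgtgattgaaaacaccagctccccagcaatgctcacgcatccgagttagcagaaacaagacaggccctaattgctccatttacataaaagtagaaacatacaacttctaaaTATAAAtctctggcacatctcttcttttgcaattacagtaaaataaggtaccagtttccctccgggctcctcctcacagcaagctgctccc
Inhbb, chr1:119422249-119422498, minus strand: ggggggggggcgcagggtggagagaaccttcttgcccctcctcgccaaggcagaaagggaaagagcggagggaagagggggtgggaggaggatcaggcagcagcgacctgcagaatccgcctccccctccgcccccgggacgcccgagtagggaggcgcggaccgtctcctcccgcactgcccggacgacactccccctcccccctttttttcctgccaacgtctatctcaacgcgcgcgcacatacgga
Ltbp2, chr12:84876533-84876741, minus strand: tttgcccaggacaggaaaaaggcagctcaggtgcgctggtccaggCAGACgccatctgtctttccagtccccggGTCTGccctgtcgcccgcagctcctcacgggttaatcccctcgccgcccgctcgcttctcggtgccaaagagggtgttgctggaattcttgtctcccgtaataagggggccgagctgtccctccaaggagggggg
Tgfb2, chr1:186705990-186706239, minus strand: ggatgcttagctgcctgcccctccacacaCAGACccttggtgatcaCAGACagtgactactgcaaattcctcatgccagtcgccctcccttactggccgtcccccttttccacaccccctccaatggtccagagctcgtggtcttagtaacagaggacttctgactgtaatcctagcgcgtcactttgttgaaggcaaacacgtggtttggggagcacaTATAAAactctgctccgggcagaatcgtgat
The Tgfb2 window held CAGAC at 221 and 204 bases before the start and TATAAA at 31 bases before it. The Inhba window held TATAAA at 91 bases before the start, and the Ltbp2 window held CAGAC at 205 bases and GTCTG at 176 bases. No match to these, to TGANTCA (AP-1) or to GGAATG (TEAD) was found in the Inhbb window, and none to the latter pair in any of the 4. Among all 32851 promoters of the table, 42.2% held CAGAC and 12.4% TATAAA within 250 bases, and 37.1% held CAGAC within the 209 bases of the Ltbp2 window. A match is a description of letters and not a binding site.

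Counts were added up for each mouse and CD26 class, which gave 25 sums (NFs, 3 CD26- and 3 CD26+; WB1P, 5 and 4; WB1P-Myc, 5 and 5), because WB1P mouse 10 had no CD26+ library. Some sums held 1 library and so only 1 of the populations of their class. In WB1P these were the CD26- sum of mouse 10 (En1+) and the CD26+ sum of mouse 12 (double+). In WB1P-Myc they were the CD26- sums of mice 21 and 95 (double-) and the CD26+ sums of mice 67 and 95 (double+). Levels are given as CPM, the counts scaled to the total of each sum. Libraries held 5790599 to 15240328 counts, and the smallest count of any member in a sum was 59. Dpp4 followed the sort, with 0.619 to 17.6 CPM in CD26- sums and 223 to 846 CPM in CD26+ sums. Markers of fibroblasts summed to 20770 to 52590 CPM, and 6 epithelial and 6 immune markers to at most 174 and 230 CPM. The fibroblast sum was led by Col1a1 and Col1a2, and its genes did not move together. Of 6 fibroblast markers 1 was higher and 3 lower in CAFs among CD26- cells, and 2 were higher and 2 lower among CD26+ cells. In CD26- cells median Pdgfra was 1563 CPM in NFs, 481 in WB1P and 362 in WB1P-Myc CAFs, while median Col1a1 was 15030, 24140 and 19500 CPM. The sum of 4 skeletal muscle markers reached 268 CPM in CD26- NFs and 59.8 CPM in CD26- CAFs, and that of 5 endothelial markers 44.2 and 25.2 CPM. Among CD26- cells 4 of 4 muscle and 4 of 5 endothelial markers were lower in CAFs, and their part in the results was not tested. Markers of pericytes (Rgs5, Cspg4, Mcam, Notch3, Kcnj8, Abcc9 and Higd1b), the mural cells of capillaries, stood apart in one class. Their sum was 210 to 400.0 CPM in CD26- NFs, 1815 to 5320 CPM in WB1P and 2554 to 10560 CPM in WB1P-Myc CD26- CAFs, against 145 to 325 CPM in all CD26+ sums. All 7 were higher in CAFs than in NFs among CD26- cells, and all 7 were lower in CD26+ than in CD26- CAFs. In CD26+ cells 1 of 7 was higher and 1 lower in CAFs, and Higd1b was at 0 in 2 of 3 NF, 3 of 4 WB1P and 3 of 5 WB1P-Myc CD26+ sums. Of 4 proliferation markers, 4 were higher in CAFs of both classes. In bulk libraries, a smaller share of cells that make a transcript and less transcript per cell cannot be told apart.

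Levels per kilobase of exon allow a rough comparison of genes. The length is that of all annotated exons merged, which may exceed that of the transcript made. On this scale Tgfbr2 and Tgfbr3 led in both classes of NFs and in CD26+ CAFs, and ligands reached the level of Tgfbr2 in CD26- CAFs. In CD26- NFs the mean level was 91.2 ± 8.0 CPM per kb for Tgfbr3 and 65.1 ± 3.7 for Tgfbr2 (SD, n = 3), while Inhba stood at 1.07 ± 0.83 and Ltbp2 at 0.452 ± 0.096 CPM per kb. In CD26- CAFs the order was led by Inhba with 107 ± 67, Tgfbr2 with 88.6 ± 23.0 and Tgfb3 with 88.3 ± 20.6 CPM per kb (SD, n = 10), which did not differ beyond their spread. Ltbp2 followed with 62.6 ± 32.8 CPM per kb. The order of the means differed between the tumor models, although no member was called between them (Inhba in CD26- CAFs, adjusted p = 0.147 by edgeR). In WB1P CD26- CAFs Inhba led with 164 ± 33 CPM per kb, ahead of Tgfb3 with 95.7 ± 23.5 and Tgfbr2 with 93.5 ± 28.7 (SD, n = 5). In WB1P-Myc CD26- CAFs Inhba stood at 50.1 ± 28.9 CPM per kb, behind Tgfbr2 with 83.7 ± 17.6, Tgfb3 with 81.0 ± 16.3 and Ltbp2 with 67.5 ± 45.4 (SD, n = 5). In CD26+ CAFs Tgfbr2 was the most abundant member with 217 ± 40 CPM per kb, followed by Tgfbr3 with 77.8 ± 18.2 (SD, n = 9). Ltbp2, Fst and Tgfb3 lay together at 44.9 ± 18.9, 44.8 ± 17.8 and 44.4 ± 14.4 CPM per kb. Among the 3 TGF-beta ligands, Tgfb3 made up the largest mean share of the summed level per kb in each of the 6 groups, from 48.6% ± 7.3 in CD26+ NFs to 67.4% ± 7.9 in CD26+ WB1P-Myc CAFs. In WB1P mouse 93 Tgfb2 held the largest share of both classes, with 43.6% and 45.8%.

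**Figure D1:**
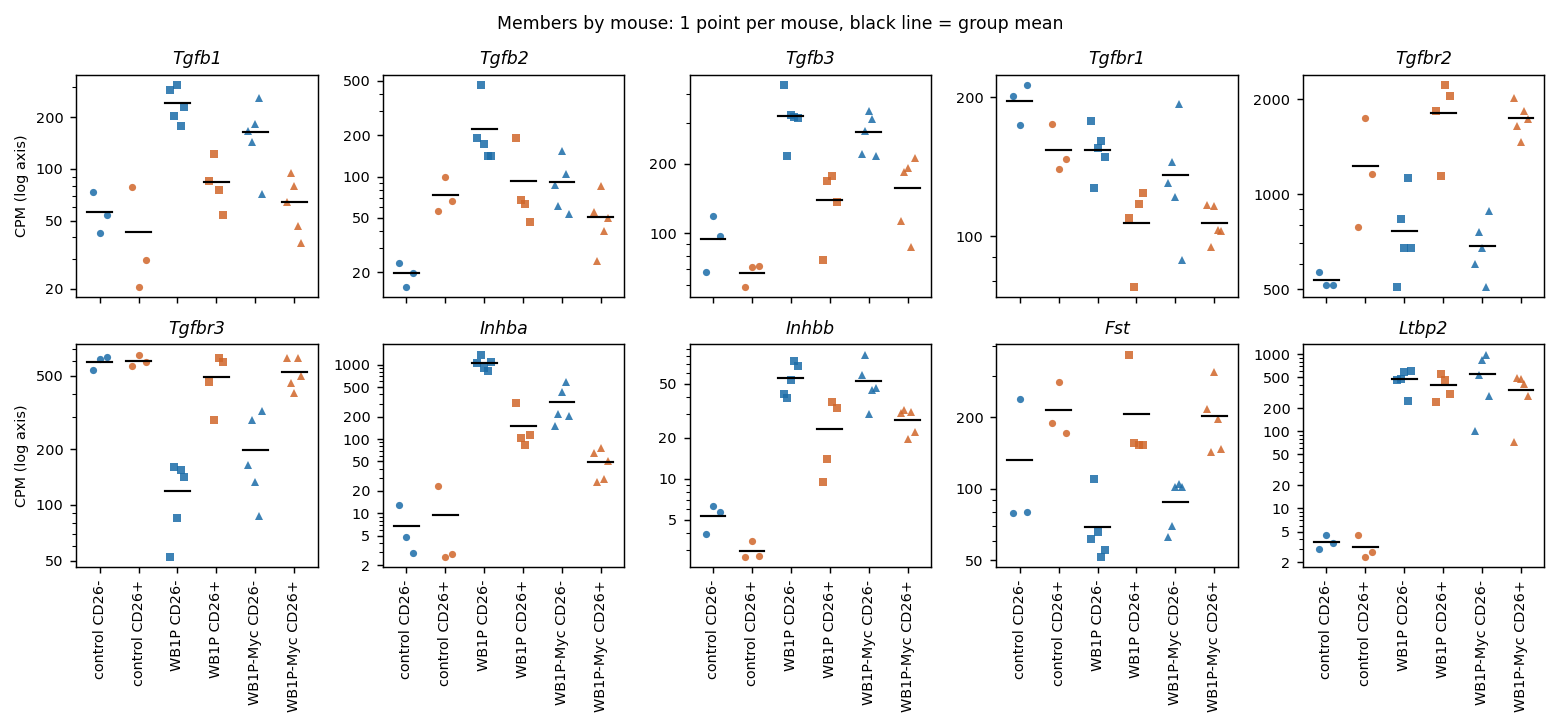
Level of each of the 10 members in CPM (log axis) for every mouse, by donor tissue and CD26 class, with blue points for CD26- and orange points for CD26+ sums and a black line at the group mean. Inhba, Inhbb and Ltbp2 lie higher in every CAF sum than in any NF sum of the same class, and Tgfbr3 lies lower in every CD26- CAF sum (52.2 to 324 CPM) than in any NF sum.

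Whether fibroblasts of tumors differ from those of control glands in these signals was asked within each CD26 class, with the CAF level taken as the equally weighted mean of both tumor models. Among CD26- cells 6 members were higher in CAFs and 1 lower at an adjusted p under 0.05 (edgeR), against 20.4% and 21% of all genes tested. In CD26+ cells 5 were higher and 0 lower, against 20.1% and 21.1% of all genes. The members' median log2 fold change was 1.80 in CD26- and 0.78 in CD26+ cells, beside 0.014 and -0.002 over all genes. The member called lower was Tgfbr3.

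Ltbp2 showed the largest fold change. Its product is a microfibril-associated protein that resembles the latent TGF-beta binding proteins but does not bind latent TGF-beta itself. In NFs Ltbp2 stood at 3.00, 4.54 and 3.55 CPM in CD26- cells of mice 82/83, 49/52 and 44/46, and at 4.53, 2.34 and 2.75 CPM in their CD26+ cells. Among CD26- CAFs it ranged from 100 to 989 CPM with a median of 508, and among CD26+ CAFs from 71.9 to 560 CPM with a median of 406. No CAF sum came near an NF sum, although WB1P-Myc mouse 21 was the lowest CAF mouse in both classes. The log2 fold change was 7.18 (SE 0.77, adjusted p = 3.57e-07 by edgeR) in CD26- and 6.94 (SE 0.76, adjusted p = 1.09e-06) in CD26+ cells.

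Inhba, which encodes the subunit of activin A, was the next. In NFs it reached 12.9, 4.78 and 2.93 CPM in CD26- cells and 23.5, 2.58 and 2.85 CPM in CD26+ cells of mice 82/83, 49/52 and 44/46, so that mouse 82/83 was the highest in both classes. WB1P CD26- CAFs held 1055, 1374, 895, 825 and 1094 CPM in mice 10, 93, 12, 14 and 35. WB1P-Myc CD26- CAFs held 152, 219, 435, 588 and 206 CPM in mice 21, 67, 95, 23 and 69. The groups of NFs and CAFs did not overlap, and all 5 WB1P mice lay above all 5 WB1P-Myc mice. In CD26+ CAFs Inhba held 305, 104, 82.4 and 114 CPM in WB1P mice 93, 12, 14 and 35, and 65.2, 26.4, 75.3, 29.0 and 49.9 CPM in WB1P-Myc mice 21, 67, 95, 23 and 69. These again lay above every NF sum, by the least for mouse 67. The log2 fold change was 6.45 (SE 0.90, adjusted p = 9.88e-06 by edgeR) in CD26- and 3.29 (SE 0.75, adjusted p = 0.00171) in CD26+ cells. Without control mouse 82/83 it was 7.33 and 5.20.

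Inhbb, the subunit of activin B, rose to lower levels. NFs held 3.93 to 6.24 CPM in CD26- and 2.65 to 3.45 CPM in CD26+ cells. CAFs held 30.0 to 82.1 CPM (median 49.6) and 9.52 to 36.5 CPM (median 30.3). NF and CAF sums were apart in each class, and the log2 fold changes were 3.41 (SE 0.38, adjusted p = 6.18e-07 by edgeR) and 3.22 (SE 0.38, adjusted p = 2.69e-06).

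Tgfb3, the most abundant TGF-beta ligand in the group means per kilobase of exon, rose in both classes. In CPM its mean of 67.3 in CD26+ NFs lay under the 73.9 of Tgfb2. It went from 68.0, 120 and 97.2 CPM in CD26- NFs of mice 82/83, 49/52 and 44/46 to 216 to 441 CPM in CD26- CAFs (median 314), and from 58.5, 71.2 and 72.0 CPM in CD26+ NFs to 76.5 to 213 CPM in CD26+ CAFs (median 169). The groups did not overlap in either class. The log2 fold changes were 1.71 (SE 0.26, adjusted p = 2.15e-05 by edgeR) and 1.26 (SE 0.25, adjusted p = 0.000559). The Tgfb3 locus overlaps Ttll5 on the other strand, which reached 35.2 CPM at most, and whether the counting used strand is not given in the sources used here.

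Tgfb1, the ligand most studied in myofibroblasts, was called in CD26- cells. It held 73.2, 42.2 and 53.7 CPM in NFs of mice 82/83, 49/52 and 44/46 and 71.0 to 310 CPM in CAFs (median 193), where WB1P-Myc mouse 69 alone fell within the NF range. The log2 fold change was 1.88 (SE 0.42, adjusted p = 0.00118 by edgeR). In CD26+ cells NFs held 78.1, 20.4 and 29.4 CPM and CAFs 37.1 to 122 CPM (median 75.4), and the log2 fold change of 0.88 (SE 0.40) had an adjusted p = 0.0777 (range over alternatives 0.00371 to 0.328). Mouse 82/83 held the value of 78.1 CPM, and without it the log2 fold change in CD26+ cells was 1.72 (adjusted p = 0.00371). Leaving out WB1P-Myc mouse 69 also brought the call (adjusted p = 0.0385).

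Tgfb2 rose in CD26- cells and overlapped between NFs and CAFs in CD26+ cells. CD26- NFs held 23.5, 15.6 and 19.9 CPM in mice 82/83, 49/52 and 44/46. CD26- CAFs of WB1P mice 10, 93, 12, 14 and 35 held 192, 467, 174, 141 and 142 CPM, and those of WB1P-Myc mice 21, 67, 95, 23 and 69 held 86.1, 61.0, 154, 104 and 53.8 CPM. Every CAF sum was higher than every NF sum of this class, with mouse 93 far above the others. In CD26+ cells NFs held 56.4, 98.7 and 66.6 CPM, and CAFs held 192, 67.5, 63.4 and 46.8 CPM in WB1P mice 93, 12, 14 and 35 and 55.0, 24.4, 85.0, 40.2 and 50.0 CPM in WB1P-Myc mice 21, 67, 95, 23 and 69. These groups overlapped. The log2 fold change was 2.93 (SE 0.55, adjusted p = 0.00025 by edgeR) in CD26- and 0.09 (SE 0.46, adjusted p = 0.901) in CD26+ cells.

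The receptors moved in different directions. Tgfbr3 encodes betaglycan, a coreceptor that presents TGF-beta2 to the signaling receptors and also binds inhibin. It held 538, 617 and 636 CPM in CD26- NFs of mice 82/83, 49/52 and 44/46. WB1P CD26- CAFs held 52.2, 161, 85.2, 154 and 141 CPM in mice 10, 93, 12, 14 and 35, and WB1P-Myc CD26- CAFs held 165, 289, 133, 87.1 and 324 CPM in mice 21, 67, 95, 23 and 69. All 10 CAF sums lay under the NF range, and the log2 fold change was -1.89 (SE 0.31, adjusted p = 5.07e-05 by edgeR). In CD26+ cells Tgfbr3 held 567 to 653 CPM in NFs and 287 to 626 CPM in CAFs, with a log2 fold change of -0.11 (SE 0.34, adjusted p = 0.812).

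Tgfbr2, the ligand-binding kinase receptor, held 568, 515 and 515 CPM in CD26- NFs and 507 to 1130 CPM in CD26- CAFs, with a log2 fold change of 0.50 (SE 0.25, adjusted p = 0.107 by edgeR). In CD26+ cells it held 785, 1752 and 1161 CPM in NFs of mice 82/83, 49/52 and 44/46 and 1147 to 2229 CPM in CAFs. That log2 fold change of 0.68 (SE 0.25, adjusted p = 0.0342) was lost in 9 of 20 alternatives (adjusted p from 0.0149 to 0.219 over all 20), among them leaving out control mouse 82/83 (0.47) or 44/46 (0.64), WB1P mouse 93 (0.62) or 35 (0.64), or WB1P-Myc mouse 21 (0.64) or 23 (0.65). Tgfbr1, the kinase that Tgfbr2 activates, had log2 fold changes of -0.37 (SE 0.18, adjusted p = 0.103) and -0.39 (SE 0.18, adjusted p = 0.0944) in CD26- and CD26+ cells. The CD26- value of Tgfbr1 passed in 3 of 20 alternatives (adjusted p from 0.0193 to 0.425 over all 20). These were the fits without WB1P-Myc mouse 23 (-0.48), without the 8x8 mice (-0.41) and with WB1P-Myc CAFs only (-0.53).

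Fst, whose product binds activin and blocks it, was not called in either class. CD26- NFs held 79.0, 240 and 79.8 CPM in mice 82/83, 49/52 and 44/46, so that mouse 49/52 lay within the 172 to 283 CPM of CD26+ NFs, and CD26- CAFs held 51.6 to 110 CPM. The log2 fold changes were -0.69 (SE 0.36, adjusted p = 0.124 by edgeR) in CD26- and 0.11 (SE 0.38, adjusted p = 0.833) in CD26+ cells. Without control mouse 49/52 the CD26- value was 0.06 (adjusted p = 0.93), so that its direction rested on that mouse, and without WB1P mouse 93 it was -0.87 (adjusted p = 0.0201, range over alternatives 0.0201 to 0.93).

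**Figure D2:**
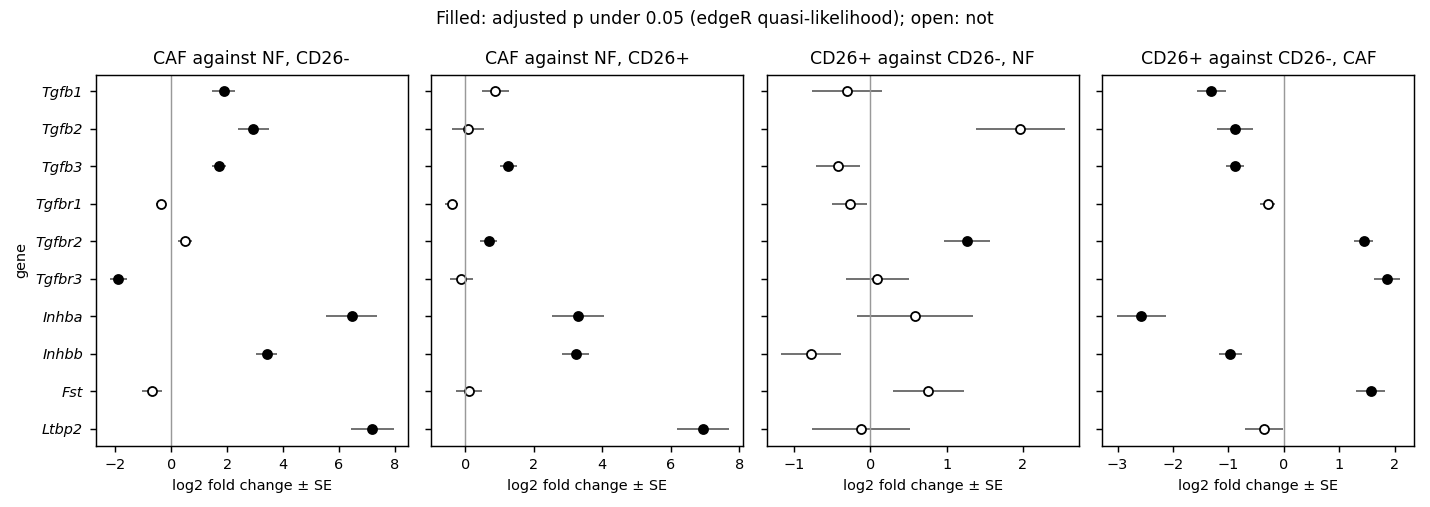
Log2 fold change of each member (x axis, bars are the SE of the fit) for CAFs against NFs in each CD26 class and for CD26+ against CD26- cells among NFs and among CAFs, with filled points for an adjusted p under 0.05. Ltbp2, Inhba, Inhbb and Tgfb3 are filled to the right of 0 in both CAF panels, while Tgfb2 and Tgfbr3 lie near 0 in the CD26+ panel (0.09 and -0.11).

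The pericyte markers were higher in CD26- CAFs than in the other sums, and their part in these results was not tested. Among CD26- CAFs the pericyte sum was highest in WB1P-Myc mouse 21 (10560 CPM), where Inhba (152 CPM) and Ltbp2 (100 CPM) were the lowest of the 10 CAF mice. It was next highest in WB1P mouse 10 (5320 CPM), where Tgfb3 (441 CPM) was highest and Tgfbr3 (52.2 CPM) lowest. Each of these CD26- sums held 1 library, double- for mouse 21 and En1+ for mouse 10. In CD26+ cells the pericyte sum was 162 to 199 CPM in NFs and 145 to 325 CPM in CAFs. Rgs5 reached at most 10.9 CPM there. In these cells Ltbp2, Inhba, Inhbb and Tgfb3 were higher in CAFs as given above. Tgfb1, Tgfb2 and Tgfbr3 were called in CD26- cells but not in CD26+ cells (log2 fold changes 0.88, 0.09 and -0.11).

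**Figure D3:**
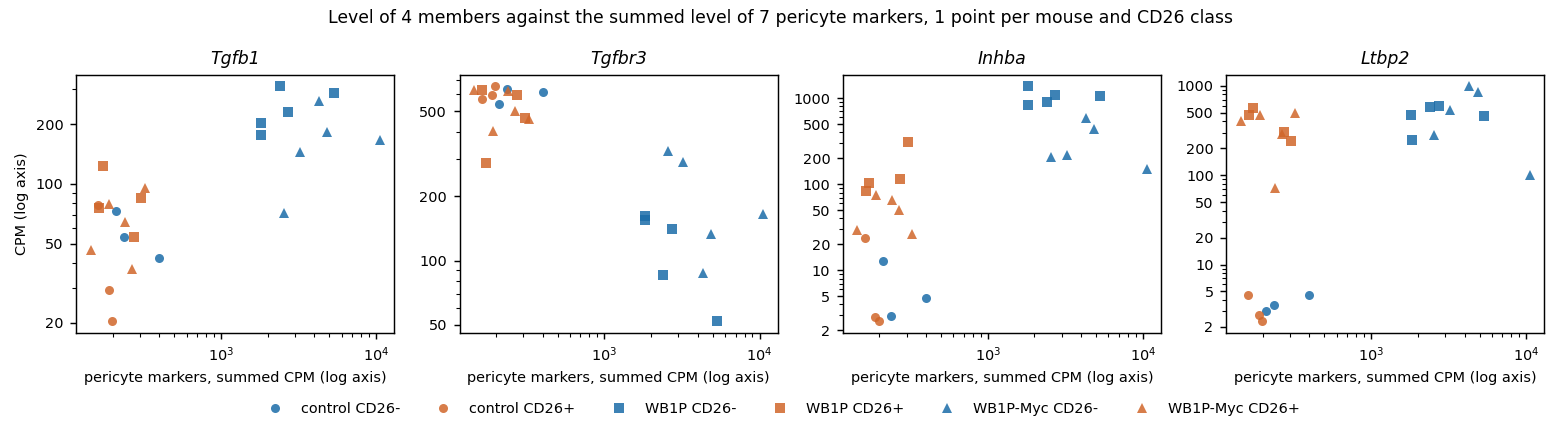
Level of Tgfb1, Tgfbr3, Inhba and Ltbp2 in CPM against the summed CPM of 7 pericyte markers (both axes log), with 1 point per mouse and CD26 class. CD26+ CAFs share the low pericyte sums of the NFs (at most 325 CPM) while their Ltbp2 lies at 71.9 CPM or above. Their Tgfb1 and Tgfbr3 overlap with those of CD26+ NFs. The 10 CD26- CAF sums lie apart at 1815 CPM or above.

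The 2 CD26 classes of CAFs differed in most members. Among CAFs 3 members were higher and 5 lower in CD26+ than in CD26- cells, against 19.1% and 19.9% of all genes tested, and the members' median log2 fold change was -0.62 beside 0.01 over all genes. All 3 TGF-beta ligands and both activin subunits were lower in CD26+ CAFs. In the 9 mice that gave both classes, Inhba was lower in the CD26+ cells of 9, and its log2 fold change was -2.57 (SE 0.45, adjusted p = 8.9e-05 by edgeR). Tgfb1 was lower in 9 of 9 mice, with -1.31 (SE 0.26, adjusted p = 0.000434). Inhbb and Tgfb3 were each lower in 9 of 9, with -0.96 (SE 0.21, adjusted p = 0.00101) and -0.88 (SE 0.16, adjusted p = 0.000169). In WB1P-Myc mouse 69 Tgfb3 was nearly level (log2 ratio -0.02). In WB1P-Myc CAFs alone Inhbb did not pass (-0.79, adjusted p = 0.0574, range over alternatives 2.58e-05 to 0.0574). Tgfb2 was lower in 9 of 9, by the least in WB1P-Myc mouse 69 (log2 ratio -0.10), with a log2 fold change of -0.88 (SE 0.32, adjusted p = 0.0328). The Tgfb2 call was lost in 7 of 21 alternatives (adjusted p from 0.000177 to 0.328 over all), among them leaving out WB1P mouse 12 (-0.86), 14 (-0.86) or 35 (-0.85) or WB1P-Myc mouse 23 (-0.82), and in either tumor model alone.

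Tgfbr2, Tgfbr3 and Fst stood on the other side, higher in CD26+ CAFs in 9 of 9 mice each. Tgfbr2 had a median of 677 CPM in the CD26- class, where its highest value was 1130, and of 1841 CPM in the CD26+ class, where its lowest value was 1147, without overlap, a log2 fold change of 1.45 (SE 0.17, adjusted p = 5.52e-07 by edgeR). Tgfbr3 had the larger change, 1.86 (SE 0.24, adjusted p = 1.92e-06), with log2 ratios within mice from 0.63 to 2.85. For Fst, CD26- CAFs held 61.6, 110, 65.5, 51.6 and 55.3 CPM in WB1P mice 10, 93, 12, 14 and 35 and 62.9, 69.6, 101, 105 and 102 CPM in WB1P-Myc mice 21, 67, 95, 23 and 69. CD26+ CAFs held 369, 157, 152 and 154 CPM in WB1P mice 93, 12, 14 and 35 and 218, 142, 311, 198 and 147 CPM in WB1P-Myc mice 21, 67, 95, 23 and 69. The classes did not overlap in Fst (log2 fold change 1.57, SE 0.26, adjusted p = 5.65e-05). The transcript of the activin A subunit was thus lower, and that of its binding protein higher, in the same CD26+ sums. Ltbp2 (-0.36, SE 0.34, adjusted p = 0.427) and Tgfbr1 (-0.29, SE 0.13, adjusted p = 0.0845) were not called, and Tgfbr1 passed only without WB1P-Myc mouse 69 (-0.34, adjusted p = 0.0418, range over alternatives 0.0418 to 0.536).

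Among NFs 1 member was higher and 0 lower in CD26+ cells, against 2.67% and 1.49% of all genes. The member was Tgfbr2, with a log2 fold change of 1.26 (SE 0.30, adjusted p = 0.0161 by edgeR), and the call was lost without control mouse 49/52 (0.92) or 44/46 (1.27) and in a fit of the NFs alone (adjusted p from 0.00135 to 0.338 over alternatives). Tgfb2 was higher in the CD26+ cells of 3 of 3 control mice, with a log2 fold change of 1.97 (SE 0.58, adjusted p = 0.0598). With mouse as a replicate block, which pairs the classes of each mouse, Tgfb2 (1.95, adjusted p = 0.000506) and Fst (0.94, adjusted p = 0.0374) were called as well. Over all alternatives the adjusted p ran from 0.000506 to 0.515 for Tgfb2 and from 0.0374 to 0.993 for Fst. Without WB1P mouse 93, which enters only through the shared spread, Tgfb2 also passed (1.97, adjusted p = 0.00437), as it did in the fit of the NFs alone (adjusted p = 0.0307) and by DESeq2's Wald test (adjusted p = 0.0129).

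**Figure D4:**
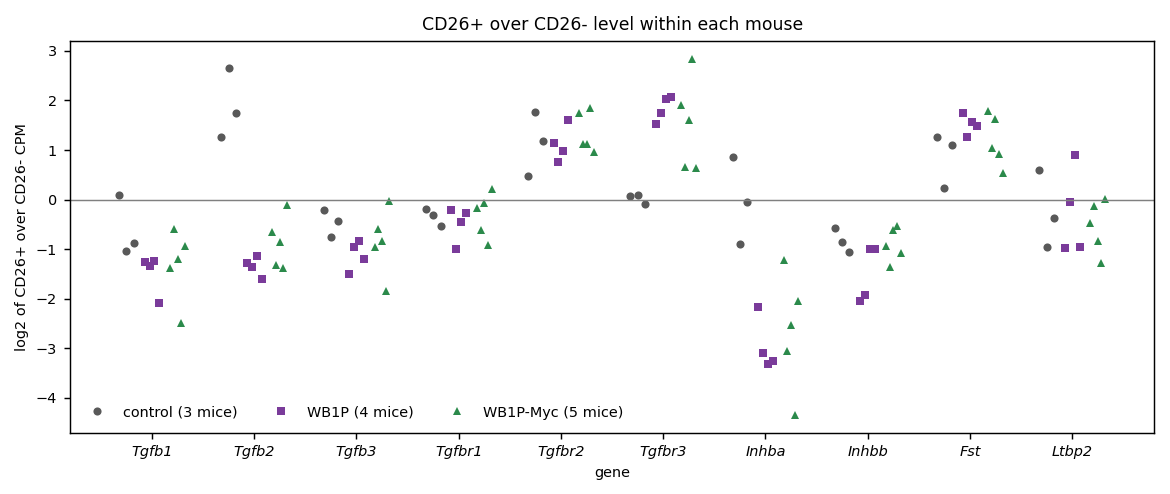
Log2 ratio of the CD26+ over the CD26- level (CPM) of each member within each mouse, for 3 control, 4 WB1P and 5 WB1P-Myc mice. Tgfb2 lies above 0 in every control mouse (1.27 to 2.66) and under 0 in every tumor mouse (-1.60 to -0.10), and Tgfbr3 lies near 0 in control mice (-0.09 to 0.08) and above 0 in tumor mice (0.63 to 2.85).

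Whether the CD26 difference itself changed between NFs and CAFs was tested as an interaction, which is the same as asking whether the change from NF to CAF differed between the CD26 classes. In this test 0 members were higher and 1 lower, against 0.723% and 1.39% of all genes. The member was Tgfb2, with a difference of -2.85 on the log2 scale (SE 0.67, adjusted p = 0.0228 by edgeR), and the call was lost in 5 of 20 alternatives (adjusted p from 0.000224 to 0.193), including leaving out control mouse 82/83 (-3.16), 49/52 (-2.46) or 44/46 (-2.92). Inhba (-3.16, SE 0.90, adjusted p = 0.0736) and Tgfbr3 (1.77, SE 0.48, adjusted p = 0.0577) did not pass. With the replicate block Inhba was -2.78 (adjusted p = 0.0205) and Tgfbr3 1.74 (adjusted p = 0.0208), and both then passed. Over alternatives the adjusted p ran from 0.00703 to 0.327 for Inhba and from 0.0105 to 0.308 for Tgfbr3. Single mice decided these calls as well, since Inhba passed without WB1P mouse 93 (-3.44), and Tgfbr3 without WB1P mouse 10 (1.68) or WB1P-Myc mouse 67 (1.90) or 69 (1.91). For Ltbp2, Inhbb, Tgfb3, Tgfbr1, Tgfbr2, Fst and Tgfb1 no such difference was called (adjusted p 0.449 or above), which does not show that their CD26 differences were alike.

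The tumor models were compared to ask whether added Myc in the tumor cells went with other fibroblast signals. None of the 10 members was called in either class (0 higher and 0 lower by edgeR), against 0.205% higher and 0.307% lower of all genes in CD26- CAFs and 0% and 0% in CD26+ CAFs. At an unadjusted p under 0.05 there were 2 members in each class, Tgfb2 and Inhba. In CD26- CAFs the log2 difference of WB1P-Myc from WB1P was -1.48 (SE 0.44, adjusted p = 0.127) for Tgfb2 and -1.85 (SE 0.59, adjusted p = 0.147) for Inhba. DESeq2's Wald test called both (adjusted p = 0.0305 and 0.0386), with a range over alternatives from 0.0305 to 0.313 and from 0.0386 to 0.342. In CD26+ CAFs the differences were -1.02 (SE 0.46) and -1.78 (SE 0.61), with adjusted p = 1 for each, and DESeq2 called 0 members.

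No member was called by GFP, the mark of the En1 lineage. Of the CD26- CAF libraries 8 were En1+ and 9 double-, and the members' log2 differences ran from -0.03 to 0.21 (0 higher and 0 lower by edgeR, 0 with an unadjusted p under 0.05, 0 by DESeq2, against 0% and 0% of 15584 genes). Median Inhba was 895 CPM in En1+ and 531 CPM in double- CAF libraries, with ranges of 154 to 1226 and 152 to 1539 CPM. Between 9 double+ and 6 CD26+ CAF libraries the differences ran from -0.32 to 0.33, again with 0 members higher and 0 lower, 0 at an unadjusted p under 0.05 and 0 by DESeq2, against 0.0193% and 0% of genes. Median Fst was 160 CPM in double+ and 173 CPM in CD26+ CAF libraries. The standard errors reached 0.47 and 0.50 on the log2 scale, both for Inhba, and a missed threshold does not show that the populations were alike.

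A list of 39 other genes of the pathway, of which 36 were tested, showed calls in both directions. In CD26- cells 10 were higher and 6 lower in CAFs, against 20.4% and 21% of all genes, and in CD26+ cells 8 were higher and 5 lower, against 20.1% and 21.1%. These shares of the list lie near those of all genes. The list's median log2 fold change was 0.06 and 0.19, beside 0.014 and -0.002 over all genes. Genes induced by TGF-beta led the rise in both classes, with 5 of 8 higher and 0 lower in CD26- cells and 4 higher and 1 lower in CD26+ cells. Ccn2, a matricellular protein gene, went from 33.7 ± 8.7 (SD, n = 3) to 802 ± 275 CPM (SD, n = 10) in CD26- cells (log2 fold change 4.63, SE 0.56, adjusted p = 1.55e-06 by edgeR) and by 3.56 (SE 0.52) in CD26+ cells. Acta2, smooth muscle actin, which pericytes also make, changed by 3.72 (SE 0.61) and 2.26 (SE 0.55) on the log2 scale. Pmepa1, a feedback inhibitor of SMAD signaling, changed by 1.23 (SE 0.21) and 1.29 (SE 0.22). The largest falls in CD26- CAFs were in Ltbp1 (-1.41, SE 0.39) and Ltbp4 (-1.12, SE 0.37), both latent TGF-beta binding protein genes, the activin receptor Acvr2a (-0.93, SE 0.22) and the pseudoreceptor Bambi (-0.70, SE 0.26). In CD26+ CAFs they were in the integrin subunit Itgb8 (-2.13, SE 0.50), the activin receptor Acvr2b (-1.95, SE 0.33), the collagen integrin subunit Itga11 (-0.90, SE 0.28) and Smad3 (-0.53, SE 0.20). Of these, Itgb8 and Acvr2b were low, with means of 1.29 and 0.48 CPM in CD26+ CAFs against 6.13 and 2.17 CPM in CD26+ NFs.

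Between the CD26 classes of CAFs 9 of the 36 pathway genes were higher and 7 lower in CD26+ cells (median 0.08), near the 19.1% and 19.9% of all genes. Ltbp1 was the largest of the former, with 532 ± 130 CPM (SD, n = 9) against 98.9 ± 57.1 CPM (SD, n = 10) in the CD26- class (log2 fold change 2.65, SE 0.30, adjusted p = 4.43e-07 by edgeR), followed by Itgb6 (1.58, SE 0.48), Smurf2 (0.86, SE 0.12) and Nox4 (0.80, SE 0.18). Itgb8 (-2.75, SE 0.40), Acta2 (-2.44, SE 0.35), Acvr2b (-1.97, SE 0.26) and Fstl3 (-1.66, SE 0.26) were lower. Itgb6, Itgb8 and Acvr2b were low, with means of 1.64, 1.29 and 0.48 CPM in CD26+ CAFs and 0.69, 9.68 and 2.23 CPM in CD26- CAFs. Fstl3 encodes a second follistatin-type activin inhibitor, and it was higher in the class where Fst was lower, with 68.8 ± 16.7 CPM against 19.8 ± 7.0 CPM in the CD26+ class. Among NFs Itga11 (2.04, SE 0.37) and Smurf2 (0.96, SE 0.22) were higher and Fstl3 (-1.85, SE 0.45) lower in CD26+ cells. Itga11 was the only one of the 36 called in the interaction (-1.69, SE 0.41, adjusted p = 0.0311). None of the 36 was called between the tumor models or by En1 class.

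Some members rose and fell together over the 25 sums, which share mice and the contrasts described above. Across sums the log2 CPM of Tgfb1 and Inhba gave a Pearson r of 0.88, Inhbb and Ltbp2 0.87, and Tgfb1 and Tgfbr3 -0.85. Over all genes tested, Inhba was nearest to the integrin subunit Itgb1 (r = 0.96, Spearman rho = 0.94) and Ltbp2 to the collagen gene Col8a1 (r = 0.97, rho = 0.76). Tgfbr2 was next to Poglut3 (r = 0.95, rho = 0.94) and Col14a1 (r = 0.94, rho = 0.94), and Tgfbr3 to Npr1 (r = 0.96, rho = 0.83). The lowest nearest value was that of Tgfb2, with Tbc1d9 (r = 0.86, rho = 0.80). These are descriptions over sums that hold 2 classes of the same mice.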

How the data were processed

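Stranded mRNA libraries of sorted fibroblasts were sequenced, and the authors deposited raw counts of reads per gene, without normalization. HISAT2 2.2.1 and GRCm38 are named in the submitters' processing notes, and the counter, its strand setting and the annotation are not given in the sources used here. All 44 columns were matched to samples by the labels. The 1 line without a gene held 0 counts. Of 63 pairs of libraries of the same group 0 were identical.

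Counts were summed per mouse and CD26 class (25 sums). Genes were filtered with filterByExpr (16601 kept, 15584 for single libraries), normalized by TMM and tested over all groups with the quasi-likelihood test of edgeR 4.0.16 in R 4.3.3, with p-values adjusted by Benjamini-Hochberg across every gene in the fit and a limit of 0.05. CPM were scaled to the plain total of each sum. Exon lengths, with all annotated exons of a gene merged, came from GENCODE, which shared coordinates with 54869 of 55486 genes. DESeq2 1.42.0 was an alternative, as were its size factors, no filter, only the groups compared, no 8x8 mice, 1 tumor model, mouse as a block and each mouse left out. The classes of a mouse are paired since they come from the same animal. Their deviations from the group means correlated across genes with r from 0.237 to 0.668 (12 pairs). The main fit had no term for the mouse, so it treated sums or libraries of the same animal as independent. Each control label with 2 numbers was counted as 1 mouse. The labels do not say whether it stands for pooled animals, in which case the NF spread and every p-value against NFs measure the spread between pools. Depth was 5790599 to 15240328 counts per library.

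The 10 members, the pathway list and the marker lists were chosen with earlier results of these data known. By rule all members are named, with at most the 4 called pathway genes of largest change per comparison and direction and the genes nearest to a member in log2 CPM. Of the pathway genes that this rule names, 1 is not reported here. Promoters were read from a RefSeq table of GRCm38.p6, and Python 3.11.15 with matplotlib 3.10.9 drew the plots.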

Additional observations from a re-analysis of the deposited data

Results flagged for a closer look

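In 5 of 40 sets examined, each 1 member in 1 group of 4 or 5 tumor mice, 1 mouse stood far from the rest by Dixon's criterion. Independent sets would give about 2, but these sets share mice and correlated genes, so the number does not measure chance. The far mouse was WB1P mouse 93 each time. In its CD26- CAFs Tgfb2 reached 467 CPM, with the next mouse at 192, and Fst 110 CPM, with the next at 65.5. In its CD26+ CAFs Tgfb2 reached 192 CPM against 67.5 in the next mouse, Inhba 305 CPM against 114, and Fst 369 CPM against 157. The cause was not tested.

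The CD26 difference of Tgfb2 differed between CAFs and NFs by -2.85 on the log2 scale (SE 0.67, adjusted p = 0.0228 by edgeR), with CD26+ cells higher in 3 of 3 control mice and lower in 9 of 9 tumor mice. The call was lost when any 1 of the 3 control mice was left out.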

How the results depend on the processing

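No member reversed its direction in a called comparison under any alternative run. The number of members called between CAFs and NFs was 7 of 10 in CD26- cells (7 to 8 with each mouse left out) and 5 in CD26+ cells (4 to 6). Between CD26 classes it was 8 in CAFs (7 to 9) and 1 in NFs (0 to 2), and in the interaction 1 (0 to 2). Between the tumor models and between En1 classes it was 0 with each mouse left out (0 to 0). DESeq2's Wald test gave 2 in NFs, 3 in the interaction and 2 between tumor models in CD26- CAFs. The replicate block gave 3 in NFs, 3 in the interaction, 8 between CD26 classes of CAFs and 0 between En1 classes. It was not run between CAFs and NFs or between the tumor models, where no mouse stands on both sides. The interaction held 0 members without the 8x8 mice, 2 with WB1P CAFs only and 0 with WB1P-Myc CAFs only. The share of all genes called was computed for the main fit only. The counts under the alternatives therefore cannot be set beside a share of all genes. The log2 fold change of Inhba from NF to CAF lay between 5.53 and 7.38 in CD26- cells and between 2.40 and 5.20 in CD26+ cells, and that of Tgfb2 in CD26- cells between 2.19 and 3.67. The 3 control mice limit every comparison with NFs. More than 1 sequencing platform is named for bulk libraries in the study's methods. Which platform served which library is not given in the sources used here. All members passed the filter on low counts, with a smallest count of 59 in a sum, and the effect of depth was not tested.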
